A study of Homo sapiens with 6 samples.

Results

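The nuclear genes of oxidative phosphorylation were taken from the deposited gene table as the rows whose KEGG annotation lists that pathway, without gene names that start with MT- or ATP6. Of 29153 rows, 114 carried the annotation. Leaving out 22 rows of the ATP6 family, which encode subunits of the vacuolar proton pump, left 92 members, and no row with the annotation had a name starting with MT-. By name, 40 members belong to complex I (NDUF genes), 4 to complex II (SDH genes), 10 to complex III (UQCR genes and CYC1), 18 to complex IV (COX genes) and 15 to complex V (ATP5 genes), and 5 others share only the annotation. The rule used no measured value. HepG2 cells, a human line derived from a liver tumour, had been infected for 72 h with a lentivirus carrying a control hairpin (sh-NC, genotype labelled control) or a hairpin against LINC01977 (sh-LINC01977, genotype labelled knockdown), with 3 RNA-seq libraries per group. The methods give 1 hairpin sequence against LINC01977, so effects of that hairpin and of its target cannot be told apart. Neither the labels nor the methods say whether the 3 libraries of a group came from separate cultures, so p-values measure the spread between these libraries, which may be technical.

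Oxidative phosphorylation takes place in the inner mitochondrial membrane. Complexes I and II pass electrons from NADH and succinate to ubiquinone, complex III passes them on to cytochrome c and complex IV to oxygen, and complex V, the ATP synthase, uses the proton gradient built up on the way. Complex II is encoded wholly in the nucleus, and the other complexes combine nuclear subunits with subunits made from mitochondrial DNA. Liver cells depend on the pathway for much of their energy-demanding synthesis, and tumour cells vary in how far they rely on it.

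Total counts per library were between 49929024 and 60441515. The hairpin's target was close to undetected, with counts of 4, 0 and 16 under sh-NC and of 0, 0 and 4 under sh-LINC01977. LINC01977 fell below the filter on low values. In a fit without that filter it had a log2 fold change of -2.12, SE 1.96 (adjusted p = 0.580, edgeR). A reduction was therefore not detectable in these libraries at this depth, and the groups are taken from the labels. The paper reports a qRT-PCR check of its stable HepG2 knockdown line. It does not say whether these libraries came from the cells checked there. Of 11 markers of HepG2 and hepatocytes, 10 had a log2 fold change below 0, and 8 were called lower in sh-LINC01977 libraries at an adjusted p under 0.05. That is 72.7%, beside 8.07% of all tested genes. The summed FPKM (fragments scaled to gene length and library size) of the 11 was 4516 to 4886 in sh-NC and 3159 to 3228 in sh-LINC01977 libraries. ALB and AFP were abundant in all libraries, which fits the labelled cell line. Of 8 fibroblast markers, 5 had a row and 2 were tested, and their summed FPKM was 3.04 to 4.21 against 5.48 to 7.67. PDGFRB was called higher (log2 fold change 1.47, adjusted p = 0.00620), COL1A1 was higher without overlap but did not pass (0.73, adjusted p = 0.0504), and VIM, THY1 and COL3A1 were below the filter. The endothelial sum stayed at or below 0.441 in all libraries. Of 4 leukocyte markers 3 were tested, and their summed FPKM was 625.5 to 633 against 543 to 558, nearly all of it from LYZ, which was called lower (-0.27, adjusted p = 0.00537). CD68 was higher without overlap but did not pass (0.44, adjusted p = 0.0627), CD14 overlapped between groups (-0.40), and PTPRC, which all leukocytes carry, had a mean FPKM of 0.00109. The part of these marker differences in the values given here was not tested.

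Of the 92 members, 87 had a mean FPKM of at least 0.5 and were tested, together with all other such genes, in 1 edgeR fit. A gene was called when its adjusted p was under 0.05. In sh-LINC01977 libraries 3 members were called higher and 4 lower, which is 3.45% and 4.60% of those tested. Of all 13452 tested genes, 7.05% were called higher and 8.07% lower, or 15.1% in either direction. The largest change was a fall of COX5A, a structural subunit of complex IV, which was 1.97-fold lower. Other calls were COX15 and NDUFA8, which rose, and PPA1, ATP5C1 and UQCRQ, which fell, each of these by at most 1.26-fold. Higher calls dropped to 1 without the second sh-NC library or without the first or the second sh-LINC01977 library, and lower calls to 1 without the third sh-NC library and to 2 without the second sh-LINC01977 library. No member passed a fold change of 2 with an unadjusted p of 0.05 or less, which 2.60% of all tested genes did.

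The median log2 fold change of the tested members was -0.04, beside -0.001 for all tested genes, with 34 members above 0 and 53 below. That balance depended on scaling. Scaled by library totals in place of TMM, the members' median was 0.02 and that of all genes 0.065, with 47 members above 0 and 40 below, and calls over all genes moved from 948 higher and 1085 lower to 1455 and 768. The members' median lay about 0.04 below that of all genes under either scaling. A change of scaling shifts all genes nearly alike, so this gap could not have changed with it. It did change with single libraries. Medians of members and of all genes were -0.0149 and -0.0024 without the third sh-LINC01977 library, and -0.0631 and -0.0006 without the second. No direction of the whole list is given. Groups did not overlap for 9 members that were higher and 16 that were lower in sh-LINC01977 libraries (10.3% and 18.4% of those tested), beside 18.8% and 18.3% of all tested genes.

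A 2-fold change lay outside the interval of nearly every member. The 95% interval of the log2 fold change lay wholly between -1 and 1 for 84 of 87 tested members, and between -0.5 and 0.5 for 75. The exceptions to the first count were COX5A, UQCRHL and NDUFC2-KCTD14. The median coefficient of variation between libraries of a group was 6.90% in sh-NC and 5.47% in sh-LINC01977, and the median standard error of a member's log2 fold change was 0.07, beside 0.11 over all tested genes. Summed over all 92 members, CPM (counts scaled to library size with TMM) was 9989, 9230 and 9627 with sh-NC and 9234, 9659 and 9347 with sh-LINC01977, so the groups overlapped. The sums for complexes I to V overlapped between groups as well, and that of the 5 other members, mostly PPA1, did not (227 to 238 against 187 to 203 CPM). For complex I the sum was 2692 ± 58.4 CPM against 2710 ± 57.1, and for complex V 2738 ± 200.1 against 2651 ± 79.6 (SD, n = 3).

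**Figure D1:**
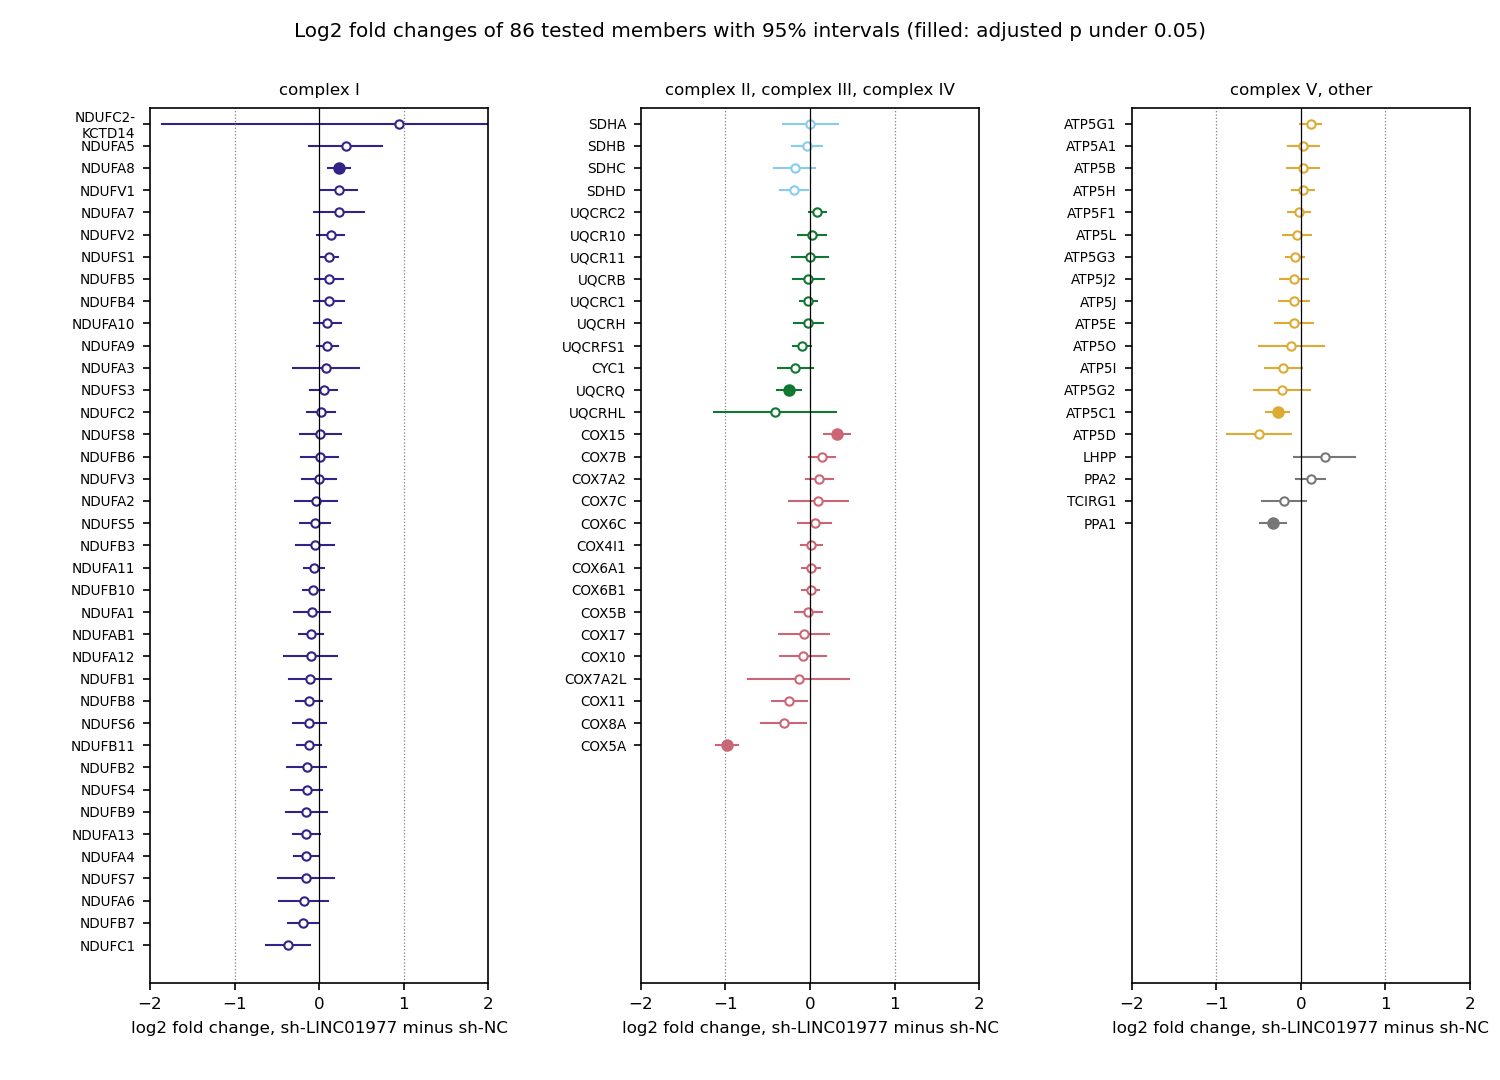
The log2 fold change (sh-LINC01977 minus sh-NC, x axis) of 86 tested members, by complex, is drawn as a point with its 95% interval from edgeR. Filled points passed an adjusted p of 0.05, dotted lines mark a 2-fold change, and the interval of NDUFC2-KCTD14 runs beyond the right edge to 3.74. Most intervals are short and cross 0, and COX5A stands alone near the left dotted line.

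The promoters of the 3 subunit genes that were called lower are shown. These falls differed in size, at 1.97-fold for COX5A, 1.21-fold for ATP5C1 and 1.19-fold for UQCRQ. Each line gives the 250 bases before the RefSeq start site on GRCh38.p14, 5′ to 3′ along the gene, with motif matches in capitals. COX5A lies at chr15:74938074-74938323 on the minus strand, UQCRQ at chr5:132866392-132866641 on the plus strand and ATP5C1 (RefSeq symbol ATP5F1C) at chr10:7787927-7788176 on the plus strand.
COX5A: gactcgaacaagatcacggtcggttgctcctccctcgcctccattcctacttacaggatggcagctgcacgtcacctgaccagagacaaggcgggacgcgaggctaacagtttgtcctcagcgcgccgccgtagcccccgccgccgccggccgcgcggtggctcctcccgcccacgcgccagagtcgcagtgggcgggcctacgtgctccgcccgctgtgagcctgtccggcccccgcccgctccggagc
UQCRQ: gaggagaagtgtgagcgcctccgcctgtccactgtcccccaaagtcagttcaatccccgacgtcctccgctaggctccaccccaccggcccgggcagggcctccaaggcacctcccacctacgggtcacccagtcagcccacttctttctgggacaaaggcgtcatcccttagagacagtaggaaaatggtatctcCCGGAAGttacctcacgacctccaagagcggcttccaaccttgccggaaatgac
ATP5C1: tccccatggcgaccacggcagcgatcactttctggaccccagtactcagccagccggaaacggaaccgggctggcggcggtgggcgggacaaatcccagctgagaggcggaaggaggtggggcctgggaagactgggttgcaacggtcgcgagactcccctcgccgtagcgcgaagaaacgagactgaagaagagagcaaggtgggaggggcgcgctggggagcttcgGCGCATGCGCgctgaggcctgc
The motifs searched, on both strands, were GCGCA, any base and GCGC in a row for NRF1, CCGGAAG for ETS factors such as GABPA, and AANATGGC for YY1, factors known from promoters of respiratory genes. The COX5A window holds none of the 3 motifs, that of UQCRQ holds the ETS motif starting 54 bases before the start site, and that of ATP5C1 holds the NRF1 motif starting 22 bases before it. A match is a description of the sequence and no evidence of binding. Promoters of 300 bases, which run 50 bases past the start site, were found for 72 members. The NRF1 motif was in 16 of them (22.2%), the ETS motif in 22 (30.6%) and the YY1 motif in 23 (31.9%), beside 6.28%, 10.7% and 6.82% of 27305 promoters in the same table. The median log2 fold change was -0.04 with the NRF1 motif and -0.03 without, -0.04 and -0.02 for the ETS motif, and -0.02 and -0.04 for the YY1 motif.

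Among the 39 tested members of complex I, 2 were called higher and none lower (5.13%). NDUFA8, an accessory subunit on the side of the intermembrane space, had 58.4, 58.4 and 61.7 CPM with sh-NC and 69.4, 72.9 and 68.2 CPM with sh-LINC01977. The groups did not overlap, but the difference was small, with a log2 fold change of 0.24 and a standard error of 0.05 (adjusted p = 0.0324, edgeR). The call held in 9 of 18 alternatives, and those that lost it include leaving out any 1 of the 6 libraries (adjusted p 0.0506 to 0.0988) and dropping the filter on low values (adjusted p = 0.0995). NDUFC1, an accessory subunit of the membrane arm, had 27.2, 21.4 and 25.8 CPM with sh-NC and 19.5, 18.1 and 20.1 CPM with sh-LINC01977, and its log2 fold change of -0.37 did not pass (adjusted p = 0.0695). Without the second sh-NC library its value was -0.46 (adjusted p = 0.0335), and DESeq2 on all libraries also called it (adjusted p = 0.0220). NDUFS1, a core subunit of the matrix arm that holds iron-sulfur clusters, had 196, 199.9 and 197 CPM against 206, 222 and 217 CPM without overlap (log2 fold change 0.12, adjusted p = 0.120), and passed only under scaling by library totals (0.19, adjusted p = 0.0387). NDUFV1, which binds NADH, had 55.6, 47.0 and 58.0 CPM against 61.6, 61.8 and 65.9 CPM (0.24, adjusted p = 0.126). NDUFV2 had a log2 fold change of 0.14 with a 95% interval of -0.02 to 0.30, and the counts in its listed pseudogene NDUFV2P1 came to 6.16% of its own.

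Levels within complex I covered a wide range. NDUFS5, a small accessory subunit, had the highest mean FPKM of all members, 334.3, and the lowest tested complex I row was NDUFC2-KCTD14 at 1.12. That row joins NDUFC2 to its neighbour, so its reads overlap those of NDUFC2, and its CPM of 0.331, 2.05 and 0.00 in sh-NC and 2.07, 1.5 and 0.932 in sh-LINC01977 libraries gave a 95% interval from -1.86 to 3.74. NDUFC2 itself, at 195 to 222 CPM, had a log2 fold change of 0.02. NDUFA4 is named after complex I but is now assigned to complex IV. It had 177, 155 and 168 CPM against 145, 154 and 149 CPM without overlap, and its log2 fold change of -0.15 did not pass (adjusted p = 0.136). Its paralogue NDUFA4L2, known from hypoxic cells, was below the filter at a mean FPKM of 0.426.

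All 4 members of complex II, succinate dehydrogenase, were tested and none was called. SDHA, the flavoprotein that oxidises succinate, had 219, 169.6 and 169.8 CPM with sh-NC and 173, 171 and 217 CPM with sh-LINC01977. One library of each group was high, so the log2 fold change was 0.004 with a 95% interval of -0.32 to 0.33. Its listed pseudogene SDHAP1 held 6.93% as many counts. SDHB, the iron-sulfur subunit, had 73.1, 76.7 and 79.3 CPM against 67.8, 75.9 and 79.3 CPM, with overlap and a log2 fold change of -0.04. The membrane anchors SDHC and SDHD had log2 fold changes of -0.18 and -0.19. SDHD had 103, 97.7 and 96.0 CPM against 92.6, 88.6 and 80.0 CPM, so its groups did not overlap, but the call was missed (adjusted p = 0.123).

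In complex III, 1 of 10 tested members was called lower (10%). UQCRQ (ENSG00000164405), a small subunit that binds near cytochrome b, had 85.1, 77.0 and 79.6 CPM with sh-NC and 65.5, 67.8 and 69.9 CPM with sh-LINC01977. All sh-LINC01977 libraries were below all sh-NC libraries, with a log2 fold change of -0.25 and a standard error of 0.06 (adjusted p = 0.0350, edgeR). The call held in 5 of 18 alternatives, and those that lost it include leaving out any 1 library (adjusted p 0.0522 to 0.107), upper-quartile scaling, scaling by library totals (-0.18, adjusted p = 0.0845), dropping the filter on low values and limma. Its share of the summed CPM of complex III was 4.44% ± 0.0799 against 3.76% ± 0.146, which does not depend on how libraries are scaled (SD, n = 3; exact two-sided permutation test, p = 0.1, below which 3 against 3 libraries cannot go). UQCRQ was picked by its call in the same libraries, so this p adds no further support. The large core subunits moved little. UQCRC1 had a log2 fold change of -0.02 with a 95% interval of -0.12 to 0.09, and UQCRC2 one of 0.08 with an interval of -0.01 to 0.18. CYC1, cytochrome c1, had 91.98, 93.1 and 103 CPM against 90.7, 76.0 and 89.2 CPM (-0.17, adjusted p = 0.231). UQCRH, the hinge protein, was the highest at a mean FPKM of 202.5, and UQCRHL, a near-identical copy of it, the lowest at 3.27. Reads of that pair may be split between both rows, so the log2 fold change of UQCRHL, -0.41 with a 95% interval of -1.14 to 0.31, is uncertain.

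Complex IV, cytochrome c oxidase, held the largest change. COX5A (ENSG00000178741, chromosome 15, 74919791 to 74938168) encodes a nuclear subunit on the matrix side of the enzyme. It was measured at 103, 95.2 and 96.3 CPM under sh-NC and at 48.7, 50.3 and 50.3 CPM in sh-LINC01977 libraries. The groups lay far apart, with little spread within either. The log2 fold change came to -0.98 (SE 0.05) with a 95% interval of -1.11 to -0.85, or 1.97-fold lower (adjusted p = 0.000466, edgeR). The fall was called in 18 of 18 alternatives, with log2 fold changes between -0.999 and -0.891 and adjusted p of at most 0.00849. COX5A took 7.23%, 7.04% and 6.73% of the summed CPM of the 11 tested complex IV subunits under sh-NC. With sh-LINC01977 it took 3.70%, 3.59% and 3.77%. Permuting the group labels exactly gave a two-sided p of 0.1 for this share, the smallest possible with 3 against 3. Because COX5A was singled out by its call on the same CPM values, that p is no separate evidence for the fall. COX5A's row overlaps no other tested gene. Of 22 tested neighbours within 500 kb on either side, chosen after the values were seen, 2 were called higher and none lower, and their median log2 fold change was 0.06 and the lowest -0.43. In the same window, PPA1 had 8 tested neighbours, of which 2 were called lower and 1 higher (median -0.26), and ATP5C1 had 4, of which 1 was called lower (median -0.20). UQCRQ had 10 tested neighbours with 1 called in each direction (median 0.14). COX15 had 10, with 1 called higher and 2 lower (median 0.04), and NDUFA8 had 4, with 1 called lower (median 0.06). Over all tested genes, 7.05% were called higher and 8.07% lower. The median had the sign of the gene's own change for all of these 6 genes but COX5A and UQCRQ. Each median rests on only 4 to 22 neighbours and some were near 0, so these signs are not read as a result.

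None of the other 10 tested complex IV subunits was called. COX4I1, the subunit that regulates the enzyme and pairs with COX5A during assembly, had 175, 174 and 183 CPM against 171, 180 and 187 CPM, with a 95% interval of -0.10 to 0.14 for its log2 fold change. COX6A1 (interval -0.09 to 0.11) and COX6B1 (interval -0.09 to 0.10) were as close to 0. COX5B, which shares its name but not its sequence with COX5A, had 125, 111 and 116 CPM against 123, 116 and 109 CPM (log2 fold change -0.02, adjusted p = 0.885). COX7A2 and COX7B had log2 fold changes of 0.11 and 0.14, with overlapping groups. COX8A, a small membrane subunit, had 108, 79.9 and 92.9 CPM against 80.4, 73.7 and 72.0 CPM. Its groups overlapped through the second sh-NC library, and its log2 fold change of -0.31 did not pass (adjusted p = 0.118), but without that library it was -0.41 (adjusted p = 0.0465). COX7A2L, which joins complexes III and IV into supercomplexes, had 96.5, 160 and 162 CPM with sh-NC and 92.7, 147 and 142 CPM with sh-LINC01977. The first library of each group was low, so its 95% interval, -0.73 to 0.46, was the widest among these subunits.

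**Figure D2:**
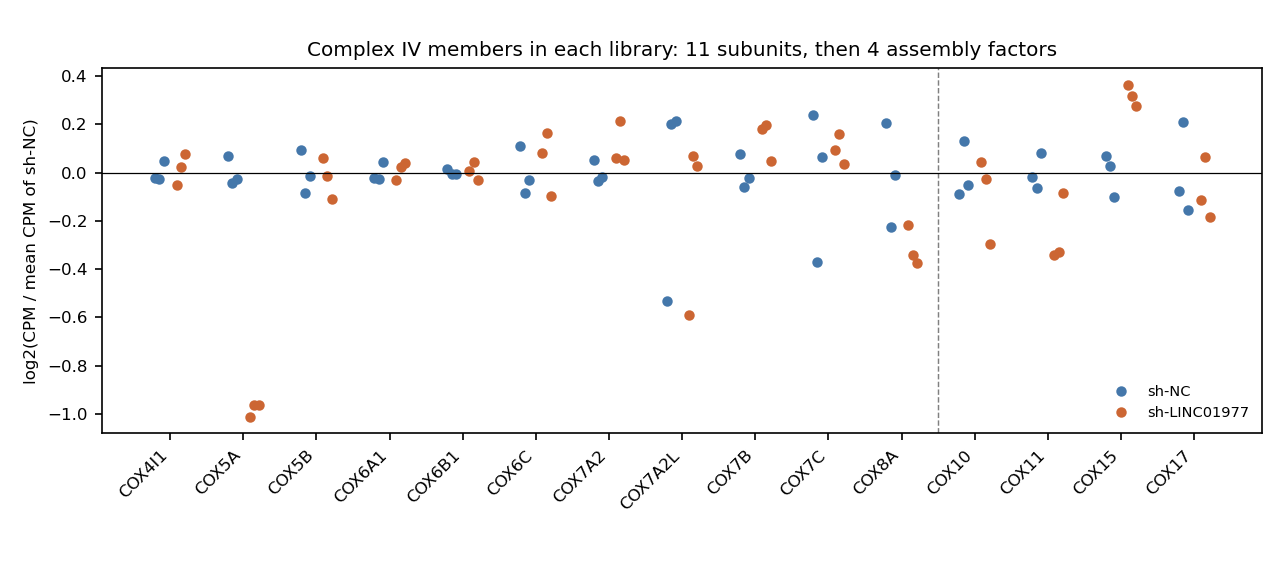
CPM of the 15 tested complex IV members in each library is plotted on the y axis as log2 of its ratio to the mean of the 3 sh-NC libraries, with sh-NC libraries in blue and sh-LINC01977 libraries in orange. The 11 subunits are left of the dashed line and 4 assembly factors right of it. COX5A lies near -1 in all 3 sh-LINC01977 libraries, the other subunits scatter around 0, and COX7A2L shows 1 low library in each group.

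COX10, COX11, COX15 and COX17 are assembly factors, not subunits. COX15, which makes heme A for the enzyme, had 63.4, 61.7 and 56.4 CPM with sh-NC and 77.8, 75.3 and 73.3 CPM with sh-LINC01977. The groups did not overlap, with a log2 fold change of 0.32 and a standard error of 0.06, or 1.25-fold higher (adjusted p = 0.0192, edgeR). The call was lost without the second sh-NC library (adjusted p = 0.0517), the first sh-LINC01977 library (0.0611 as adjusted p) or the second sh-LINC01977 library (0.0614), and held in the other 15 alternatives. CUTC, which overlaps COX15, had 24.6 to 27.6 CPM against 30.2 to 32.9 CPM (adjusted p = 0.0613), and reads of both may not be told apart. COX11, which delivers copper, had 71.7, 69.5 and 76.9 CPM against 57.3, 57.9 and 68.5 CPM, and its log2 fold change of -0.25 did not pass (adjusted p = 0.109), although it did without the third sh-LINC01977 library (-0.34, adjusted p = 0.0447). COX10, which makes the heme O that COX15 uses, was at -0.09 and had the lowest mean FPKM of the tested complex IV members, 6.22, while COX6B1 had the highest, 173.

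Tissue isoforms of complex IV subunits were close to absent. COX4I2, known from lung, had counts of 9, 0 and 0 in sh-LINC01977 libraries and 0 in all sh-NC libraries. COX7A1, the heart and muscle form, had at most 4 counts in any library. COX6B2, known as a testis isoform, had counts of 8, 3 and 2 in sh-NC and 52, 31 and 25 in sh-LINC01977 libraries. Those groups did not overlap, and in the fit without a filter its log2 fold change was 2.96 (adjusted p = 0.0457), but its mean FPKM was only 0.0732, against 173 for COX6B1.

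In complex V, 1 of 15 tested members was called lower (6.67%). ATP5C1 (ENSG00000165629), the gamma subunit of the rotating central stalk, had 212, 218 and 227 CPM with sh-NC and 169, 186 and 189 CPM with sh-LINC01977. Groups did not overlap, with a log2 fold change of -0.27 and a standard error of 0.06, or 1.21-fold lower (adjusted p = 0.0229, edgeR). The call was lost in 7 of 18 alternatives. These were scaling by library totals (-0.21, adjusted p = 0.0678), limma with either pseudocount, and leaving out the second (adjusted p = 0.0644) or the third (0.0730) sh-NC library or the first (0.0532) or the second (0.0563) sh-LINC01977 library. ATP5C1 took 7.24%, 8.61% and 8.24% of the summed CPM of complex V under sh-NC and 6.42%, 6.79% and 7.31% in sh-LINC01977 libraries (exact two-sided permutation test, p = 0.2). Unlike its CPM, this share overlapped between groups. ATP5D, the delta subunit of the same stalk, had 13.0, 12.5 and 11.1 CPM against 10.6, 7.39 and 8.002 CPM. Its log2 fold change of -0.49 was the lowest in complex V and did not pass in edgeR (adjusted p = 0.0881), while DESeq2 called it (adjusted p = 0.0306), as did edgeR without the first sh-LINC01977 library (-0.66, adjusted p = 0.0345). ATP5B, the catalytic beta subunit and the highest of the complex at a mean FPKM of 166, had 529, 421 and 462 CPM against 480, 481 and 479 CPM (log2 fold change 0.03). Subunit c of the rotor ring is encoded by 3 genes with the same mature protein. ATP5G1 was higher without overlap (104, 96.9 and 102 against 114, 109 and 105 CPM) but did not pass (0.12, adjusted p = 0.202), and ATP5G2 and ATP5G3 were at -0.22 and -0.07.

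Of the 5 other annotated members, PPA1 was called lower. PPA1, the cytosolic enzyme that splits pyrophosphate, had 172, 181 and 175 CPM with sh-NC and 129, 150 and 141 CPM with sh-LINC01977. All sh-LINC01977 libraries were lower, with a log2 fold change of -0.33 and a standard error of 0.06, or 1.26-fold lower (adjusted p = 0.0179, edgeR). The call was lost without the second (adjusted p = 0.0605) or the third (0.0537) sh-NC library or the third (0.0570) sh-LINC01977 library. PPA2, its mitochondrial counterpart, had 21.0, 22.7 and 23.0 CPM against 23.8, 24.9 and 23.8 CPM, with no overlap, a log2 fold change of 0.12 and an adjusted p of 0.317. LHPP, a phosphatase that also acts on pyrophosphate, had a log2 fold change of 0.28 (adjusted p = 0.259), and TCIRG1, a subunit of the vacuolar pump, one of -0.19 (adjusted p = 0.283). ATP4A, the gastric proton pump, had counts of 0, 4 and 4 in sh-LINC01977 libraries and 0 in sh-NC libraries.

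**Figure D3:**
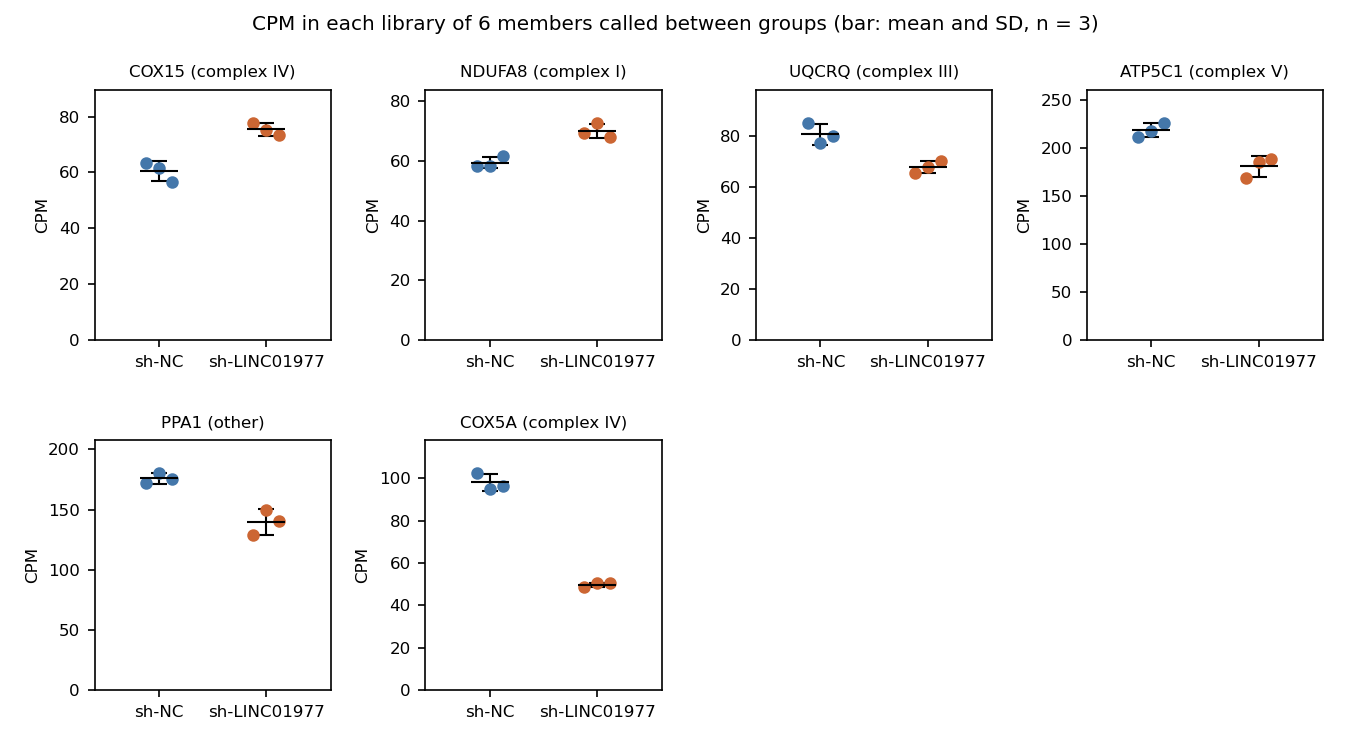
CPM (y axis, from 0) of 6 called members is plotted for each of the 3 sh-NC libraries (blue) and 3 sh-LINC01977 libraries (orange), with the mean and SD as black bars. In each panel the groups do not overlap, and the gap is widest for COX5A, at 95.2 to 103 against 48.7 to 50.3 CPM.

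**Figure D4:**
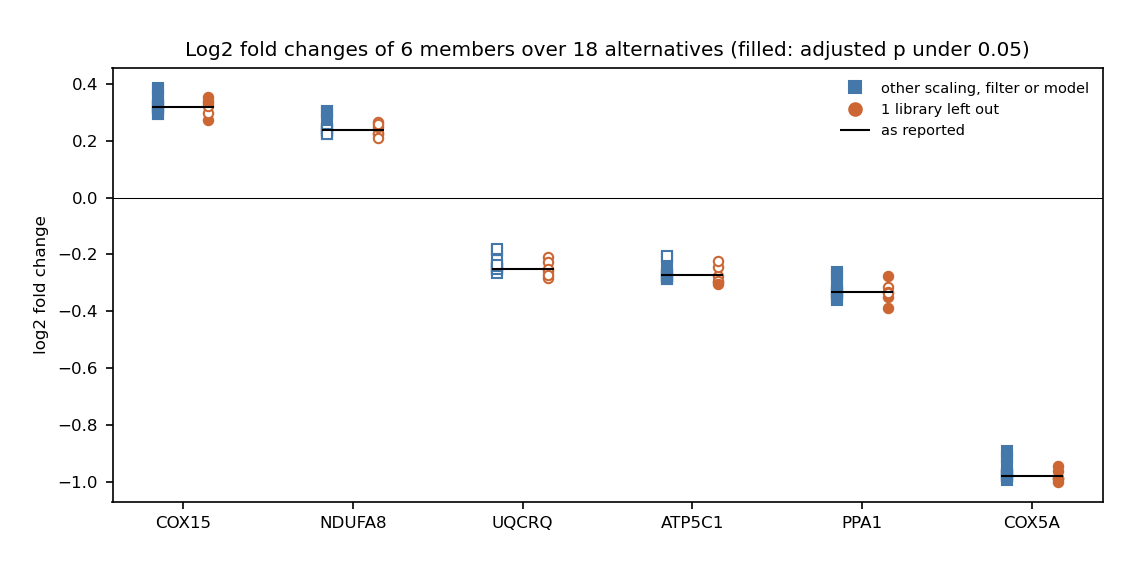
The log2 fold change (y axis) of 6 called members is plotted for 12 other scalings, filters and models (squares) and for 6 fits with 1 library left out (circles), with the reported value as a black line. Filled marks passed an adjusted p of 0.05. Directions held throughout, COX5A stayed filled in all 18, and UQCRQ in 5.

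Levels between members were compared per length. The deposited FPKM divides by the length of all exons of a gene merged. That length, from GENCODE 29, matched the one implied by count and FPKM within 1% for 84 of 87 tested members, after a common factor. Merged exons were 1 to 8.98 times as long as the principal transcript, with a median of 1.85, so FPKM places genes with long alternative exons low. Counts were therefore also divided by the principal transcript's length, as CPM per kb, a choice made after the data were seen. These counts still cover all merged exons, so CPM per kb places genes with reads outside the principal transcript high. Merged exons were 8.98 times as long as the principal transcript for NDUFA11, 7.46 times for ATP5J2 and 5.49 times for COX4I1. The true order of such genes is therefore uncertain. NDUFA11, a membrane-arm subunit, went from rank 56 by FPKM (16.8) to rank 12 (186 CPM per kb), and COX4I1 from rank 37 to rank 10. COX5A went the other way, from rank 20 (42.2 FPKM) to rank 45 (58.3 CPM per kb). By FPKM the order at the top was NDUFS5, UQCRH, COX6B1 and ATP5B. By CPM per kb UQCRH led with 582, followed by ATP5J2, a membrane subunit of complex V, with 537 and NDUFS5 with 412. Spearman's rho between both measures was 0.876 over 87 members, as a description of genes that share counts. Fold changes between groups do not depend on the length.

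**Figure D5:**
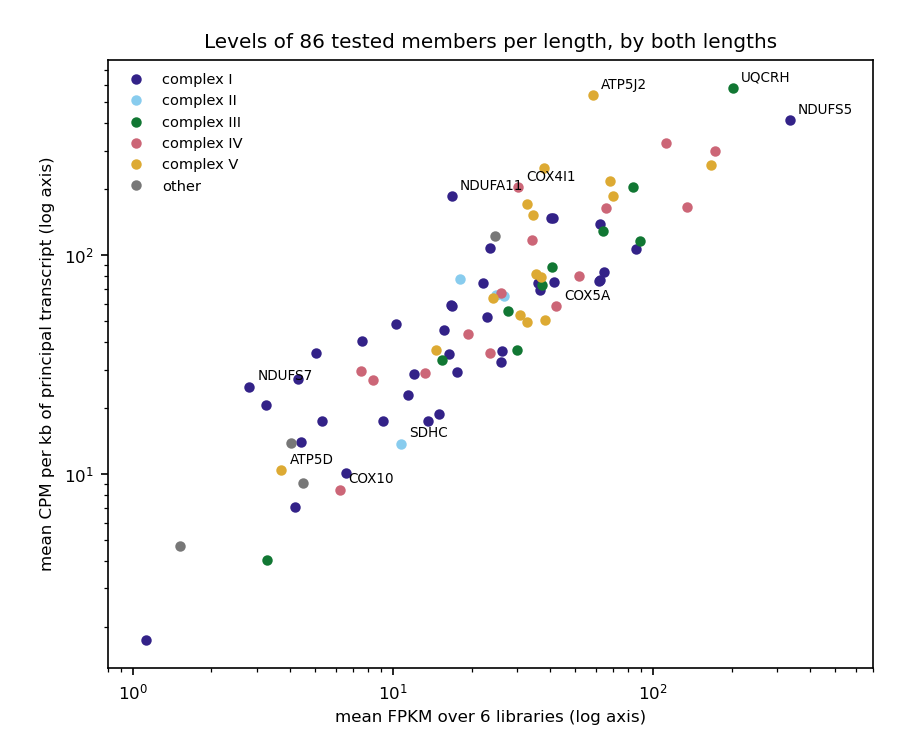
The mean level of 86 tested members is plotted as FPKM (x axis, log scale) against CPM per kb of the principal transcript (y axis, log scale), coloured by complex. NDUFS5, UQCRH and ATP5J2 are at the top, and NDUFA11 and COX4I1 lie well above genes of the same FPKM.

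Genes that act around the complexes were read from lists. Of the 20 called genes named from these lists, the 6 that stayed called in every alternative that gave a value were COA6, PPARGC1A, ETFB, VDAC3, ATP6V1C2 and ATP6V0E2. The others lost the call in 1 (COA7) to 13 (ESRRA and APOO) alternatives. Of 16 assembly factors of complex I, 4 of complex II and 6 of complex III, none was called. Of 5 for complex V, 1 was called higher (20.0%, beside 7.05% of all tested genes). This was ATPAF1, a chaperone of the catalytic head (0.32, adjusted p = 0.0273). Of 20 further assembly factors of complex IV, 4 were called lower and none higher (20.0%). Of all tested genes, 8.07% were called lower and 15.1% in either direction. COA6, which helps load copper, had 41.2, 38.4 and 42.0 CPM against 29.03, 27.7 and 28.2 CPM, without overlap, a log2 fold change of -0.52 and an adjusted p of 0.00372. COA7 fell by 0.47 on the log2 scale (adjusted p = 0.0141). The other two, named after their values were seen, were COA3 (-0.41, adjusted p = 0.0351) and SURF1 (-0.33, adjusted p = 0.0373).

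Among 17 nuclear regulators of respiratory genes, 2 were called higher and 2 lower (11.8% each, beside 7.05% and 8.07% of all tested genes). PPARGC1A, the coactivator known for driving mitochondrial biogenesis, had 16.2, 18.5 and 17.3 CPM with sh-NC and 8.05, 9.68 and 7.96 CPM with sh-LINC01977. The groups were far apart, with a log2 fold change of -1.02 and a standard error of 0.12, or 2.02-fold lower (adjusted p = 0.00287, edgeR). ESRRA, a nuclear receptor that works with PPARGC1A, fell by 0.49 (adjusted p = 0.0450), a call lost in 13 of 18 alternatives. TFB1M, which modifies mitochondrial ribosomal RNA (0.33, adjusted p = 0.0269), and SP1, a general factor of GC-rich promoters (0.25, adjusted p = 0.04996), rose. The call of TFB1M was lost in 4 of 18 alternatives and that of SP1 in 11. NRF1, TFAM and GABPA, the classic factors of respiratory gene expression, were not called, with log2 fold changes of 0.14, -0.04 and 0.03 and 95% intervals of -0.12 to 0.40, -0.16 to 0.08 and -0.18 to 0.24. MYC, singled out after its values were seen, had 173, 177 and 169.5 CPM in sh-NC libraries but 159, 161 and 7.24 CPM in sh-LINC01977 libraries, so its level there rests on the third library.

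The 13 subunits encoded by mitochondrial DNA all had log2 fold changes below 0, with a median of -0.21. The rows of MT-ATP8 and MT-ATP6 overlap on the mitochondrial genome, as do those of MT-ND4L and MT-ND4. The 13 signs are therefore not independent observations. Groups did not overlap for 7 of the 13, all lower (53.8%, beside 18.3% of all tested genes). Of these 13, 1 was called lower (7.69%, beside 8.07% of all tested genes). MT-CO3, a core subunit of complex IV, fell by 0.29 (adjusted p = 0.0293), a call lost in 8 of 17 alternatives. Summed FPKM of the 13 was 119100, 99110 and 100800 in sh-NC and 95250, 98320 and 88130 in sh-LINC01977 libraries, so the groups were close but did not overlap. COX5A and MT-CO3 belong to the same enzyme, and the nuclear partners COX4I1, COX5B, COX6A1 and COX6B1 were not called. Nor were its mitochondrial subunits MT-CO1 (-0.14, adjusted p = 0.125) and MT-CO2 (-0.36, adjusted p = 0.087). Over all 13, log2 fold changes ran from -0.36 to -0.09, so values below 0 were not limited to complex IV.

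Of 17 electron carriers and coenzyme Q genes, 2 were called lower (11.8%, beside 8.07% of all tested genes). These were ETFB (-0.31, adjusted p = 0.00466) and COQ10A (-0.88, adjusted p = 0.0436). ETFB passes electrons from fatty acid oxidation towards ubiquinone. Of 13 citric acid cycle genes, 2 were called higher (15.4%, beside 7.05% of all tested genes). These were SUCLG2 (0.45, adjusted p = 0.0204) and OGDH (0.23, adjusted p = 0.0402). In the outer membrane and import list, 2 of 12 were called lower (16.7%, beside 8.07% of all tested genes). VDAC3, a channel of the outer membrane, had 137, 142 and 160 CPM against 63.0, 62.5 and 61.0 CPM, with a log2 fold change of -1.24 (adjusted p = 0.000466). HSPD1, the matrix chaperonin, was at -0.14 (adjusted p = 0.0313), a call lost in 11 of 18 alternatives. Of 8 genes that shape the cristae, IMMT (0.57, adjusted p = 0.0413) and CHCHD6 (0.33, adjusted p = 0.0437) were higher and APOO (-0.38, adjusted p = 0.0446) lower. Of the 22 ATP6 rows that the rule left out, 18 were tested. Of these, 11.1% were called higher and 5.56% lower, beside 7.05% and 8.07% of all tested genes. ATP6V1C2 (1.85, adjusted p = 0.00821) and ATP6V1A (0.19, adjusted p = 0.0464) were higher and ATP6V0E2 (-0.96, adjusted p = 0.00188) lower.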

How the data were processed

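The authors isolated RNA for the 6 HepG2 libraries in TRIzol and ran them on an Illumina HiSeq machine. The submitters' processing notes name bcl2fastq 2.0, HISAT2, StringTie, DESeq2, limma and build hg38, without roles. Raw integer counts were deposited by the authors. The FPKM values that the authors deposited beside them are scaled to merged exon length and library total. The tool that produced the counts and its use of strand are not given in the sources used here.

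The 13452 genes whose mean FPKM reached 0.5 entered edgeR 4.0.16 in R 4.3.3, with TMM scaling, the quasi-likelihood test and p-values adjusted over all tested genes by Benjamini-Hochberg. CPM uses the same scaling. Lengths and overlaps came from GENCODE 29 and the table's coordinates, and promoters from RefSeq (GRCh38.p14). The members and lists were chosen with earlier results of these data known. Named were, by rule, called members without overlap (up to 3 per complex and direction), the highest and lowest member of each complex, all SDH and other members, paralogue sets, members whose call depends on 1 library, up to 2 called genes per related list and direction, PPARGC1A, NRF1, TFAM, GABPA and LINC01977. NDUFS1, NDUFV1, SDHAP1, the core UQCR genes, CYC1, COX5B, COX10, NDUFA11 and ATP5J2 were named after their values were seen. The edgeR script was tested on simulated data. Alternatives were other scalings, filters, DESeq2 1.42.0, limma 3.58.1 on log2(FPKM + 0.1) and log2(FPKM + 1), GC and length correction, a replicate block and leaving out each library. Values of 1 member are not reported here.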

Additional observations from a re-analysis of the deposited data

How the results depend on the processing

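Directions of the 6 called members named here held in all 18 alternatives, and COX5A was called in each. Of 60 named genes over all alternatives, 796 values kept direction and side of the threshold, 155 kept direction but no longer passed, 6 newly passed and 31 changed sign. Members called lower numbered 4, and 2 under scaling by library totals and under limma with either pseudocount. The members' median of -0.04 became 0.02 in those fits (0.0237, 0.0230 and 0.0223). DESeq2 called 3 higher and 6 lower. With 1 library left out, 1 to 2 members were called higher and 1 to 3 lower, and the median was -0.06 to -0.01. The third sh-NC library mattered most for lower calls (1 without it), and the second sh-NC, first and second sh-LINC01977 libraries for higher calls (1 without each). Over all genes, calls fell from 2033 to between 1176 and 1398 with 1 library left out.

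Values near 0 changed sign in genes that were called in no fit. Under library totals, limma with 0.1 and limma with 1 these were NDUFS5 (0.0166, 0.0119 and 0.0119), SDHB (0.0266, 0.0230 and 0.0223), TFAM (0.0279, 0.0254 and 0.0238) and UQCRH (0.0463, 0.0446 and 0.0444, and 0.0112 with upper-quartile scaling). Without the filter COX6A1 was at -0.0026, COX6B1 at -0.0065 and SDHA at -0.0092, and GABPA was at -0.0347 with GC and length correction and at -0.0316 with the block added. Leaving out 1 library gave ATP5B -0.0469 to 0.12, COX4I1 -0.0135 to 0.0514, COX6A1 -0.0031 to 0.0351, COX6B1 -0.0131 to 0.0255, COX7A2L -0.34 to 0.0505, GABPA -0.0355 to 0.0912, SDHA -0.12 to 0.14, SDHB -0.0877 to 0.0249 and UQCRH -0.0752 to 0.0389.

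The replicate numbers share only a number. Deviations of same-numbered libraries correlated at -0.028, 0.022 and 0.056, and not every library correlated best with its own number. With the replicate block 2 members were called higher and 3 lower (median -0.04), and the same with GC and length correction added to the block (median -0.06). NDUFA8 (adjusted p = 0.0816 and 0.0992, edgeR) and UQCRQ (0.0847 and 0.0854) lost their calls in both. Calls over all genes fell from 2033 to 1390 and 1512. GC and length correction without the block called 3 higher and 4 lower (median -0.06). In that fit NDUFA8 (adjusted p = 0.0474, edgeR) and UQCRQ (0.0461) kept their calls. The ratio of the highest to the lowest complex I level was 298 by FPKM and 236 by principal transcript length. Depth limits members below 0.5 FPKM, and reads shared with copies or overlapping genes could not be separated.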
